A study of Mus musculus with 6 samples.

Results

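The genes of cholesterol synthesis, uptake and efflux were followed in mouse bone marrow cultures grown without or with queuine, the base that mammals take up to build the queuosine modification of transfer RNA. The set held 30 genes, listed by gene symbol for their part in the pathway, of the 57132 genes counted. Of these 30, 29 had enough reads to be tested, among 10554 tested genes. The set does not hold every enzyme of the pathway. Genes outside it were examined only as cell type markers, in lists of neighbouring lipid pathways and as background over all tested genes. Other enzymes and receptors were not analysed here.

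Bone marrow of female C57BL/6 mice aged 6 to 8 weeks was cultured with the growth factor GM-CSF at 15 ng/mL, which drives marrow progenitors toward dendritic cells and related myeloid cells, in medium with dialyzed serum. One group received no queuine (0 nM, called 0Q) and the other 100 nM queuine (100Q). Cultures were fed on days 2 and 4 with the same GM-CSF and the same queuine dose, and total RNA was taken on day 5 for mRNA sequencing. Each group had 3 libraries from cultures plated in triplicate. The labels do not say that these came from separate animals, so the p-values measure only the spread between cultures. Values are deposited counts given as CPM, scaled to a common library size with TMM factors over the tested genes.

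Library totals were 5720248, 6755367 and 3675918 counts in 0Q replicates 1 to 3, and 5296149, 4484785 and 19386533 in 100Q replicates 1 to 3. All 12 dendritic cell markers were detected in every library, with summed levels of 1046 to 1213 CPM without queuine and 1064 to 1225 CPM with it. The cultures were mixed, since all 8 monocyte and macrophage markers (18094 to 20168 CPM without, 18160 to 21866 CPM with queuine) and all 9 granulocyte markers (16883 to 19800.0 CPM without and 14081 to 17158 CPM with queuine) were also detected in every library. The 9 granulocyte markers all had estimates below 0, the median log2 fold change being -0.22. Of all tested genes 50% were below 0, and 67.8% of those at 100 CPM or more. For 3 of the 9, 100Q lay wholly below 0Q (background 3.84%). By edgeR 3 had an unadjusted p under 0.05 (background 1.16% lower in 100Q) and 0 passed the adjusted limit. Above 0 were 8 of 12 dendritic cell markers and 6 of 8 monocyte and macrophage markers. The part of the granulocyte markers in the results below was not tested. The 5 mast cell, basophil and eosinophil markers summed to 1572 to 1802 CPM and 1392 to 1835 CPM, and all 5 estimates were below 0 (median -0.16). Of the erythroid markers 2 of 5 were detected in every library, with sums of 56.9 to 60.6 CPM and 48.4 to 54.6 CPM and Klf1 at 0 in all. Of the lymphocyte markers 1 of 6 was, with sums of 6.94 to 11 CPM and 3.80 to 10.3 CPM and Cd3e at 0 in all. In such bulk cultures fewer cells of a type and less RNA per cell cannot be told apart.

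Cells make cholesterol from acetyl-CoA through mevalonate, farnesyl diphosphate, squalene and lanosterol. When membrane sterol is low, Scap escorts the SREBP transcription factors out of the endoplasmic reticulum and synthesis genes are switched on; when sterol is high, Insig proteins hold Scap back, while oxysterols activate the LXR receptors and with them the cholesterol exporters. In dendritic cells and macrophages, which take up large amounts of foreign membrane, the balance of these arms is known to bear on lipid storage and inflammatory signalling.

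Cultures with queuine did not differ detectably from those without it in any cholesterol gene. None of the 29 tested members passed an adjusted p of 0.05 by edgeR's quasi-likelihood test with Benjamini-Hochberg adjustment over all tested genes, where the background was 0% of 10554 genes and each member had an adjusted p of 0.999. None had an unadjusted p under 0.05 either, against a background of 2.93% (1.77% higher and 1.16% lower in 100Q), and DESeq2 and limma-voom also gave 0 by both limits. Of the 29 estimates, 18 lay above 0 and 11 below; their median was 0.12 on the log2 scale, while the median over all tested genes was 0.00. The members' median was 0.025 with limma-voom, 0.053 without 100Q replicate 1, 0.068 without 0Q replicate 1, 0.20 without 0Q replicate 3 and 0.22 without 100Q replicate 3. The estimates ran from -0.36 for Nsdhl to 0.84 for Tm7sf2.

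The absence of a call carried different weight for abundant and for scarce members. The 95% interval of the change stayed within 2-fold in either direction for 20 of 29 members and within 1.5-fold for 9, compared with 45.3% and 18% of all tested genes. All 7 members at 100 CPM or more had intervals within 1.5-fold, as did 89.5% of all genes at that level. None of the 8 tested members under 10 CPM (Mvk, Dhcr7, Tm7sf2, Srebf1, Scap, Insig2, Nr1h2 and Mylip) had an interval within 2-fold, as was so for all but 1.44% of tested genes at that level, and changes of 2-fold remained inside their intervals.

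**Figure D1:**
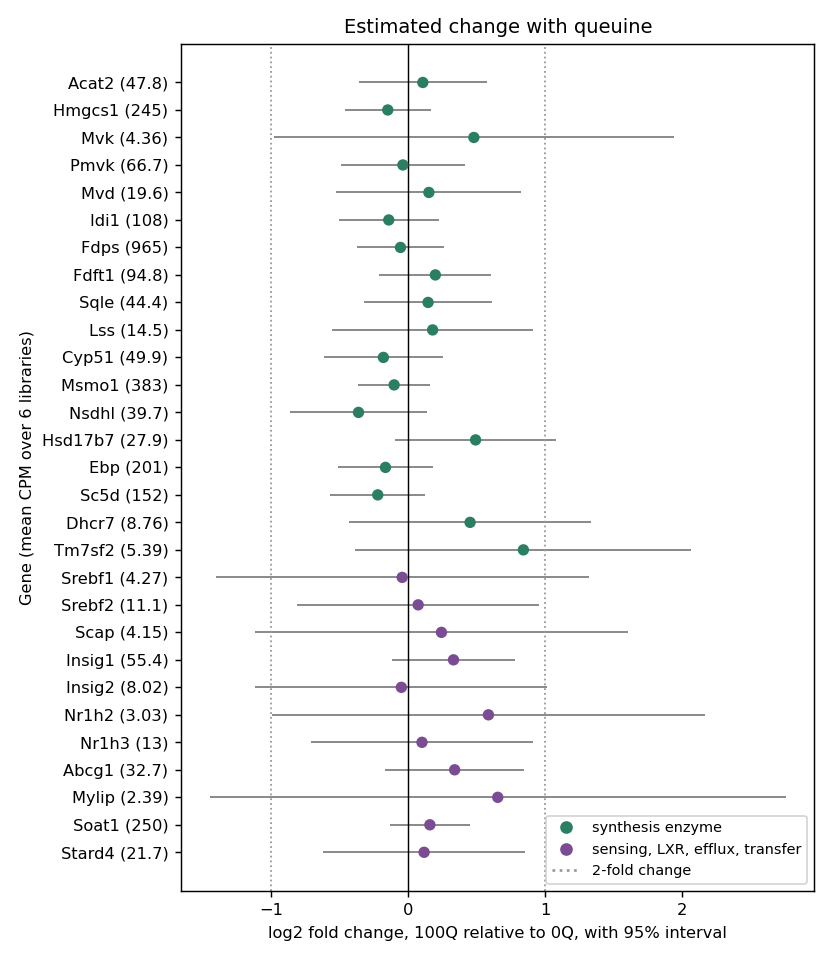
Estimated log2 fold change of each tested cholesterol gene, 100Q relative to 0Q (x axis), with its 95% interval and, beside each name, the mean CPM over the 6 libraries; dotted lines mark a 2-fold change. Every interval includes 0, and the intervals are narrowest for abundant genes such as Msmo1 (-0.37 to 0.16) and widest for Mylip (-1.45 to 2.76).

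Along the pathway the mRNA levels were very uneven. Per length of annotated exon, as TPM (CPM corrected for length) averaged over the 6 libraries, the level of Fdps, which makes farnesyl diphosphate, was the highest of the 30 genes at 445 TPM (352 to 528 across libraries). Ebp (a sterol isomerase, 111 TPM), Hmgcs1 (HMG-CoA synthase, 105 TPM), Msmo1 (a methylsterol oxidase, 96.9 TPM) and Idi1 (isopentenyl diphosphate isomerase, 68.3 TPM) followed. The ranges of Ebp (92.2 to 138 TPM), Hmgcs1 (85.4 to 119 TPM) and Msmo1 (88.6 to 102 TPM) overlapped, so their order was within the spread of the libraries. With the longest transcript as the length, Msmo1 ranked 2 and Hmgcs1 ranked 4. At the other end, mevalonate kinase Mvk averaged 0.894 TPM (1.32 TPM by the longest transcript), although its product feeds the same linear route as that of Fdps. The level of Fdps is less certain, since its deposited counts were not whole in any of the 6 libraries. Scap averaged 0.746 TPM (1.51 TPM by the longest transcript), and the exporter Abca1 was the lowest at 0.181 TPM.

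**Figure D2:**
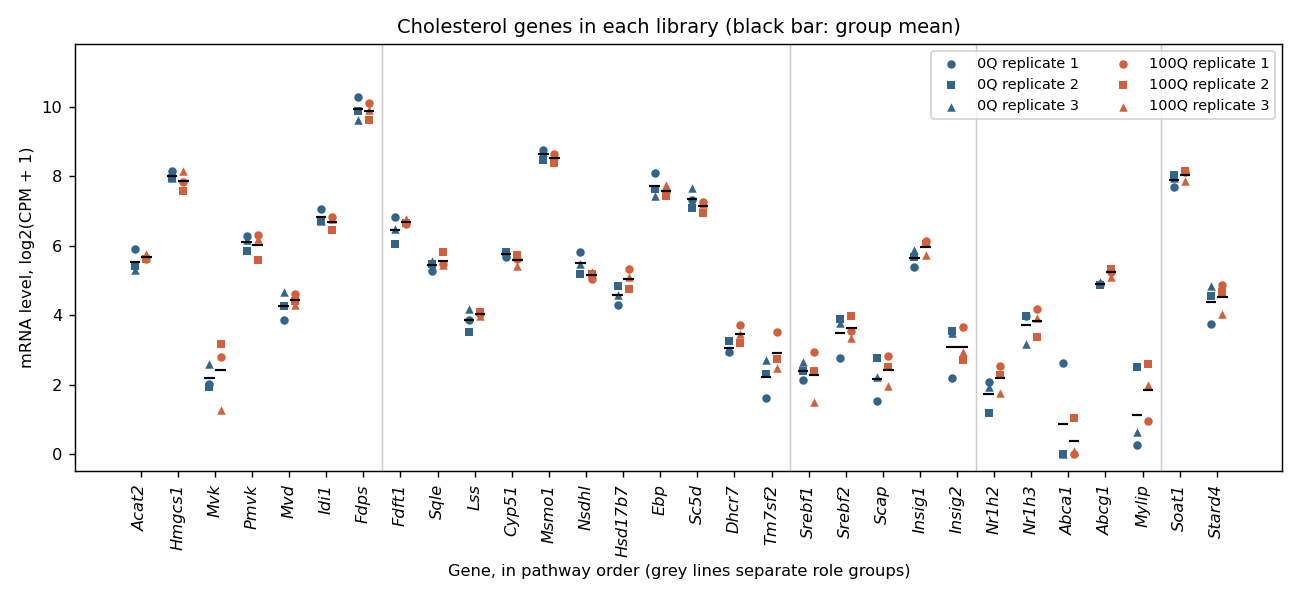
mRNA level of each cholesterol gene in each of the 6 libraries, as log2(CPM + 1) (y axis), in pathway order with group means as black bars. Fdps stands highest, from 782 to 1229 CPM, and the blue 0Q and orange 100Q points of nearly all genes interleave; Abcg1 is the gene whose groups do not overlap.

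The proximal promoters are shown with letters tied to control by SREBP. Elements that bind the LXR receptors were not searched or marked, also in the genes of the LXR arm. A sterol regulatory element, searched as TCACNCCAC on both strands, binds SREBP, and nearby CCAAT boxes (CCAAT) and GC boxes (GGGCGG) bind the general factors NF-Y and Sp1. Of the 30 members, 25 were in the RefSeq promoter table of build GRCm38.p6; Fdps, Fdft1, Sqle, Abcg1 and Stard4 were not. The table's sequences were placed on GRCm39 by exact match, and bases inside annotated exons of the gene were left off. Capitals mark the sterol regulatory element, CCAAT box and GC box letters on either strand, 5′ to 3′ along the gene. Hmgcs1 is shown as the 1 member holding the sterol regulatory element letters (chr13:120151637-120151886, plus strand), Sc5d as an abundant enzyme without them (chr9:42175606-42175846, minus strand), and Mylip (chr13:45542968-45543214, plus strand) and Abca1 (chr4:53159901-53160145, minus strand) as members of the LXR arm.
Hmgcs1: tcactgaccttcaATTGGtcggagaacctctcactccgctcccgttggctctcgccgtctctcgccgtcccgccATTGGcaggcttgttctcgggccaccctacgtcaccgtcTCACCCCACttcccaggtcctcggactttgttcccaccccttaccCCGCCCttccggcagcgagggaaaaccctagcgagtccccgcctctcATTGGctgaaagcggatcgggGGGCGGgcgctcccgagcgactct
Sc5d: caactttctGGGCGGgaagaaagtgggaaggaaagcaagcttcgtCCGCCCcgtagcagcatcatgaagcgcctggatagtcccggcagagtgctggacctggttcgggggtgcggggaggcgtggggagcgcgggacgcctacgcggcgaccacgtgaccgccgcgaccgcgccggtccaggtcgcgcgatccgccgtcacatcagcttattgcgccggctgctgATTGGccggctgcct
Mylip: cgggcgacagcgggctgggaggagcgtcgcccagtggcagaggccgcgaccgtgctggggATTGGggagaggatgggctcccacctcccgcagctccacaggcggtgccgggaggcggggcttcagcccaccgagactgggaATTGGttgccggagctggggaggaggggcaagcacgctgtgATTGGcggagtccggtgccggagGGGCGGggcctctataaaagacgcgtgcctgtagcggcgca
Abca1: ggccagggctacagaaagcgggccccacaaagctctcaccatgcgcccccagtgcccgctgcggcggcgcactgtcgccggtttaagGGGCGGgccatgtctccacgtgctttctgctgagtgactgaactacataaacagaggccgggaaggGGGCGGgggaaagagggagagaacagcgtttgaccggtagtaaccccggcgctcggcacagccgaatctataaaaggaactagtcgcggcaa

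In the 250 bases before the start, the sterol regulatory element letters were found in 1 of 25 members, Hmgcs1, 137 bases before the start, and in 1.06% of 15319 promoters. CCAAT was found in 13 of 15 enzymes (all but Acat2 and Dhcr7) and in 6 of 10 other members, compared with 36.4% of all promoters. Mvk, 1 of the scarcest enzymes, held 5 such boxes and Hmgcs1 held 3. The GC box letters were found in 14 of 15 enzymes (all but Pmvk), in 4 of 10 other members and in 47.3% of all promoters. These matches describe the letters in this window and no binding was measured. Insig1, a target of SREBP, held no match to the sterol regulatory element letters. An exact string in 250 bases can therefore miss elements, and its absence does not show that a gene lacks sterol control.

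The mevalonate arm showed no detected difference between the groups. Of its 7 genes 3 lay above 0 and 4 below (median -0.04), and 6 intervals stayed within 2-fold. Hmgcs1 (ENSMUSG00000093930, GRCm39 chr13:120151915-120170470), which joins acetyl-CoA to acetoacetyl-CoA, stood at 283, 247 and 244 CPM in 0Q and at 225, 189 and 283 CPM in 100Q. The groups overlapped, with 100Q replicate 3 as high as 0Q replicate 1. Its group means were 258 ± 21.4 CPM (SD, n = 3) and 232 ± 47.4 CPM (SD, n = 3), a log2 fold change of -0.15 with a standard error (SE) of 0.15. Fdps (ENSMUSG00000059743, chr3:89000888-89019213) stood at 1229, 934 and 787 CPM in 0Q and at 1100.0, 782 and 957 CPM in 100Q. Its highest value and its second lowest both came from 0Q, and the means of 983 ± 225 CPM and 946 ± 159 CPM (SD, n = 3 each) gave -0.06 (SE 0.15). Idi1 (chr13:8935537-8942487) stood at 133, 103 and 103 CPM and at 112, 86.4 and 108 CPM. Here 0Q replicate 1 was the highest and 100Q replicate 2 the lowest, and the estimate was -0.14 (SE 0.17).

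The kinases and the decarboxylase between them were lower. Pmvk, phosphomevalonate kinase, ranged from 47.4 to 77.2 CPM over the 6 libraries with an estimate of -0.04 (SE 0.22), and both ends of that range were 100Q libraries. Mvd, mevalonate diphosphate decarboxylase, ranged from 13.4 to 24.2 CPM, both ends in 0Q (0.15, SE 0.32). Mvk (chr5:114582267-114601803) stood at 3.02, 2.82 and 5.00 CPM in 0Q and at 5.89, 8.00 and 1.43 CPM in 100Q, so the highest and the lowest library were both 100Q and the interval ran from -0.98 to 1.94. Acat2, the thiolase that makes acetoacetyl-CoA, ranged from 38.1 to 58.4 CPM, again both in 0Q (0.11, SE 0.22). The deposited estimated counts of Acat2, Fdps, Fdft1 and Cyp51 were not whole in any of the 6 libraries, as happens when reads are shared with other sequences, so their levels are less certain than those of the other members.

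From squalene to cholesterol, 6 of 11 genes had a higher estimate in 100Q and 5 a lower one (median 0.15). Hsd17b7 (ENSMUSG00000026675, chr1:169777093-169796813), the ketoreductase of the sterol demethylation complex, had the smallest unadjusted p of all members. It stood at 18.7, 27.6 and 23.1 CPM in 0Q and at 39, 25.7 and 33.1 CPM in 100Q. Only 100Q replicate 2 fell inside the 0Q range, and the means were 23.1 ± 4.47 CPM and 32.6 ± 6.65 CPM (SD, n = 3 each). The log2 fold change was 0.49 (SE 0.28, 95% interval -0.10 to 1.08), with an unadjusted p of 0.096 and an adjusted p of 0.999 by edgeR's quasi-likelihood test with Benjamini-Hochberg adjustment. Nsdhl (chrX:71961712-72002129), the dehydrogenase of the same complex, had the lowest estimate of all members. It stood at 55.3, 35.3 and 43.6 CPM in 0Q and at 32.1, 35.2 and 36.8 CPM in 100Q. The 0Q values spread more widely (44.7 ± 10.1 CPM, SD) than the 100Q values (34.7 ± 2.39 CPM, SD), and the estimate of -0.36 (SE 0.24) became -0.17 without 0Q replicate 1. Msmo1 (chr8:65170603-65186830), the oxidase that opens this demethylation, stood at 425, 351 and 412 CPM and at 394, 332 and 381 CPM. Replicate 2 was the lowest library in both groups, and the estimate was -0.10 (SE 0.13). The 3 named proteins of this complex had estimates on both sides of 0, none past the test.

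Fdft1 (chr14:63382189-63417027), squalene synthase, stands where the route commits to sterols. Its levels were 112, 65.0 and 88.3 CPM without queuine and 96.4, 99.8 and 107 CPM with it, and the 0Q values enclosed the 100Q values. The estimate was 0.20 (SE 0.19), and without 0Q replicate 1 it was 0.41 with an unadjusted p of 0.0452 by edgeR. Tm7sf2 (chr19:6112851-6118403), a sterol reductase, had the highest estimate of all members, 0.84 (SE 0.58, 95% interval -0.38 to 2.07). It stood at 2.08, 3.95 and 5.56 CPM in 0Q and at 10.5, 5.69 and 4.6 CPM in 100Q, so 100Q replicate 1 stood highest, and 100Q replicate 3 lay inside the 0Q range. Ebp (chrX:8050773-8059795) stood at 269, 195 and 172 CPM in 0Q and at 184, 171 and 212 CPM in 100Q, an estimate of -0.17 (SE 0.16). Its groups overlapped and the value was 0.04 without 0Q replicate 1. Of the rest, Sc5d, a sterol desaturase, ranged from 122 to 199 CPM (-0.22, SE 0.17) and Cyp51, the lanosterol demethylase, from 41.5 to 55.3 CPM (-0.18, SE 0.21). Sqle, squalene epoxidase, ranged from 37.4 to 55.0 CPM (0.15, SE 0.22), Lss, lanosterol synthase, from 10.3 to 16.9 CPM (0.18, SE 0.35), and Dhcr7, the reductase of the final step to cholesterol, from 6.61 to 12.2 CPM (0.45, SE 0.42). The groups overlapped for each of these 5 genes.

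Among the 5 sterol-sensing genes 3 lay above 0 and 2 below (median 0.07). Insig1 (ENSMUSG00000045294, chr5:28276315-28283668), which is itself a target of SREBP, was the most abundant of them. It stood at 40.6, 49.6 and 56.9 CPM in 0Q and at 68.8, 64.5 and 52.1 CPM in 100Q. The groups overlapped through 0Q replicate 3 and 100Q replicate 3, and the means of 49.1 ± 8.19 CPM and 61.8 ± 8.67 CPM (SD, n = 3 each) gave 0.33 (SE 0.21, 95% interval -0.11 to 0.78). Srebf2 (chr15:82031382-82093201), which encodes the SREBP form that mainly drives cholesterol synthesis, stood at 5.85, 13.8 and 12.8 CPM and at 10.6, 14.5 and 9.20 CPM. Its estimate was 0.07 (SE 0.42), and the lowest library was 0Q replicate 1. Srebf1, whose product also drives fatty acid synthesis, ranged from 1.85 to 6.65 CPM with both ends in 100Q (-0.04, SE 0.65). Scap ranged from 1.89 CPM in 0Q replicate 1 to 6.08 CPM in 100Q replicate 1 (0.24, SE 0.65), and Insig2, the second retention protein, from 3.59 to 11.6 CPM in the same 2 libraries (-0.05, SE 0.51).

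In the LXR arm the 4 tested genes all had estimates above 0, with a median of 0.46, but none passed the test. Abcg1 (ENSMUSG00000024030, chr17:31276649-31336969), an exporter that hands cholesterol to lipoproteins, was the only 1 of the 29 members whose groups did not overlap, against a background of 8.24% of tested genes (4.41% with 100Q above and 3.84% with 100Q below). It stood at 28.5, 27.9 and 30 CPM in 0Q and at 36.7, 39.4 and 33.5 CPM in 100Q. Every 100Q library was above every 0Q library, and the means were 28.8 ± 1.07 CPM and 36.5 ± 2.97 CPM (SD, n = 3 each). The log2 fold change was 0.34 (SE 0.24, 95% interval -0.17 to 0.85), with an unadjusted p of 0.177 and an adjusted p of 0.999 by edgeR's quasi-likelihood test with Benjamini-Hochberg adjustment, and leaving out any 1 library kept it between 0.28 and 0.40. An exact permutation test of 3 against 3 libraries cannot go below 0.1.

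Abca1 (ENSMUSG00000015243, chr4:53030787-53159900), the exporter that loads cholesterol onto lipid-poor apolipoprotein, was the member left untested for low counts. It had 27, 0 and 0 counts in 0Q and 0, 5 and 1 counts in 100Q, so nearly all its reads came from 0Q replicate 1. A count of 0 allows up to 3 counts, which is 0.423 and 0.833 CPM in 0Q replicates 2 and 3 and 0.570 CPM in 100Q replicate 1, for counting error only. Mylip (chr13:45543215-45565501), a ubiquitin ligase that marks lipoprotein receptors for degradation, was as uneven, with 1, 33 and 2 counts in 0Q and 5, 24 and 56 counts in 100Q. Its estimate was 0.65 (SE 1.00) and became 3.01, with an unadjusted p of 0.0415 by edgeR, when 0Q replicate 2 was left out. The receptors themselves were low, with Nr1h3 (LXR alpha) at 8.06 to 16.9 CPM (0.10, SE 0.39) and Nr1h2 (LXR beta) at 1.27 to 4.75 CPM (0.59, SE 0.75), and both overlapped between groups.

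Cholesterol that is not exported is esterified or moved between membranes. Soat1 (ENSMUSG00000026600, chr1:156252095-156303864), which esterifies cholesterol for storage in droplets, stood at 206, 258 and 244 CPM in 0Q and at 279, 281 and 230.1 CPM in 100Q. 100Q replicate 3 lay inside the 0Q range, and the means of 236 ± 27.0 CPM and 264 ± 29.0 CPM (SD, n = 3 each) gave 0.16 (SE 0.14, 95% interval -0.13 to 0.45). Soat1 was the only one of the 7 members at 100 CPM or more with an estimate above 0. The other 6, Hmgcs1, Idi1, Fdps, Msmo1, Ebp and Sc5d, were all below 0, and the median of the 7 was -0.14. Among all tested genes at that level 32.2% were above 0 and the median was -0.06. Stard4 (chr18:33332197-33346942), which carries sterol between membranes, stood at 12.3, 22.4 and 27.5 CPM and at 28.3, 24.2 and 15.2 CPM, with groups that overlapped and an estimate of 0.12 (SE 0.35).

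Single libraries stood out over several members at once. 0Q replicate 1 was the lowest library for 7 of the 11 tested sensing, LXR, storage and transfer genes (63.6%), and for 23.8% of all tested genes. It was the lowest for 4 of the 5 sensing genes, whose median deviation from their own means was -0.77 on the log2 scale in this library. The same library was the highest for 4 of the 7 members at 100 CPM or more (57.1%, against 20.9% of all tested genes). For the 11 sensing, LXR, storage and transfer genes the highest library was always a 100Q library, replicate 1 for 7 (63.6%, against 16.8% of all tested genes) and replicate 2 for 4 (36.4%, against 19.8%). The lowest was 0Q replicate 2 for 2 of them, and 0Q replicate 3 and 100Q replicate 3 for 1 each. 100Q replicate 2 was also the lowest for 6 of the 7 abundant members (85.7%, against 18.9%). Across genes, the deviation in 0Q replicate 1 had a Spearman rho of -0.18 with transcript length, while the other libraries lay between -0.05 and 0.12; the part of this in the members' values was not tested. Without 0Q replicate 1, 7 of the 29 estimates changed sign, namely those of Pmvk, Mvd, Fdps, Ebp, Srebf2, Scap and Stard4.

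**Figure D3:**
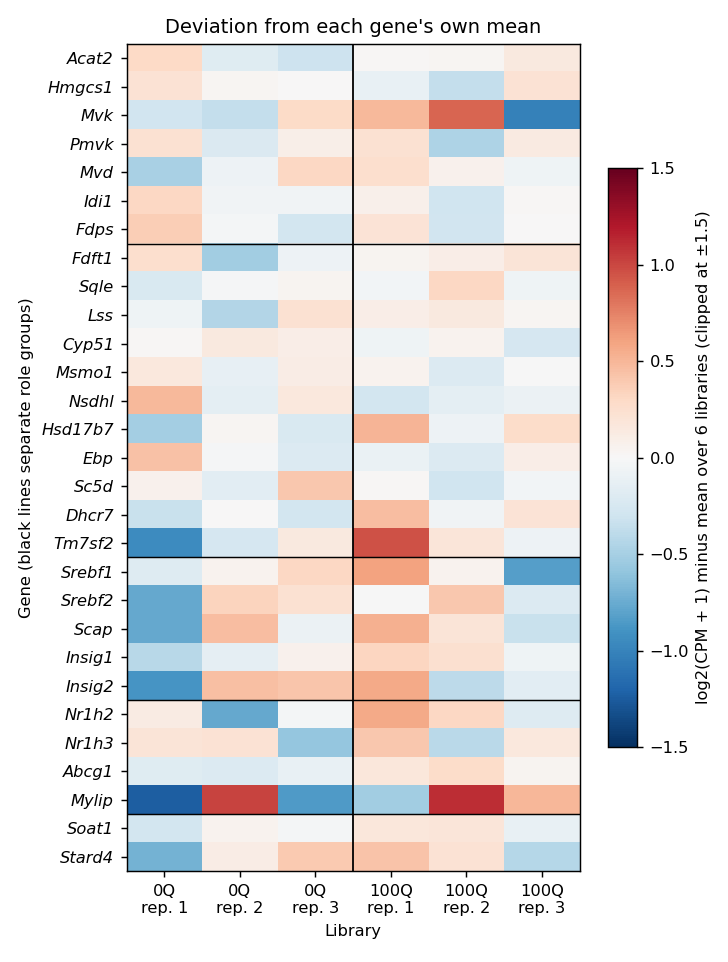
Deviation of each tested cholesterol gene in each library from its own mean over the 6 libraries, in log2(CPM + 1) units (colour, red above and blue below). The first column, 0Q replicate 1, is blue for all 5 sensing genes from Srebf1 to Insig2 (median -0.77), as is 100Q replicate 3 to a lesser degree (median -0.20), while the other 4 libraries are above the mean for 4 of the 5.

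Since queuosine sits in the transfer RNAs that read the codons of asparagine, aspartate, histidine and tyrosine, the share of these codons ending in U rather than C was counted in each coding sequence. It ran from 23.9% in Nr1h3 to 65.2% in Idi1, with a median of 44.7% in the 18 enzymes and 32.9% in the other 12 members. All tested coding genes with at least 20 such codons (8702 genes) had a median of 44.0% and quartiles of 35.0% and 53.7%. The estimates and these shares had a Spearman rho of -0.50 over the 29 tested members, and -0.04 over all those genes. Over the same 29 members the estimates had a rho of -0.59 with the mean level in CPM, and the codon share had a rho of 0.45 with the level per length. These correlations describe genes measured in the same 6 libraries, none of whose own changes passed the test; the rho with codon share was -0.33 with limma-voom and between -0.50 and -0.32 when 1 library was left out. The rho with the level was -0.31 with limma-voom and -0.16 without 0Q replicate 1.

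**Figure D4:**
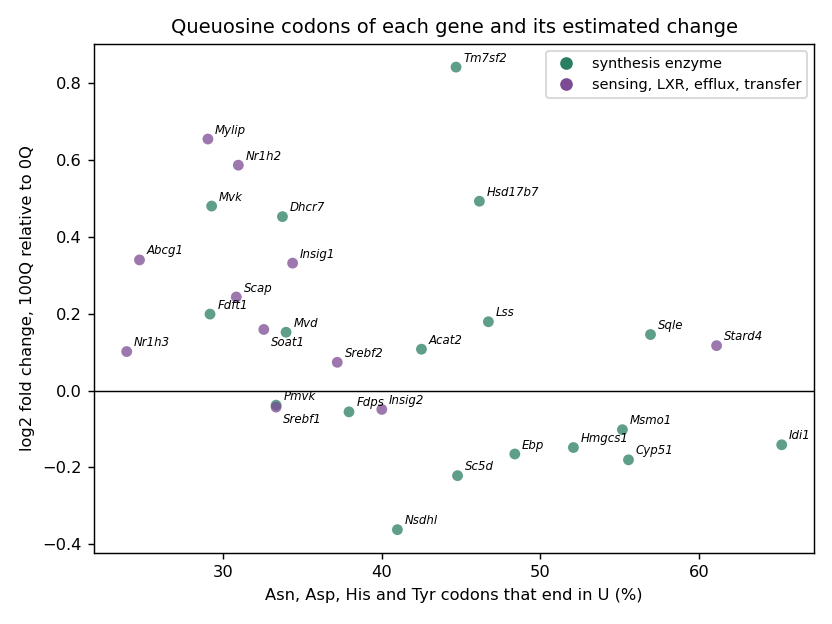
Share of each gene's asparagine, aspartate, histidine and tyrosine codons that end in U (x axis, %) against its log2 fold change, 100Q relative to 0Q (y axis), for the 29 tested cholesterol genes. Genes with a low share ending in U, such as Abcg1 (24.7%), lie mostly above 0, and of the 6 genes over 50% Sqle and Stard4 lie above 0.

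Neighbouring lipid pathways gave the same count of 0 calls and 0 unadjusted p-values under 0.05 by edgeR in each list. Of the 9 genes for SREBP proteases and sterol-regulated factors of the endoplasmic reticulum, 5 estimates were above 0 (median 0.19), and 2 genes did not overlap between groups with 100Q above (background 4.41%). Mbtps2, the protease that releases SREBP, was 1 of these, at 4.72 ± 0.559 CPM and 7.96 ± 0.779 CPM (SD, n = 3 each; 0.75, SE 0.48). Of 6 tested genes of the isoprenoid branch 2 were above 0 (median -0.14), with Ggps1 at -0.09 (SE 0.26) and Coq2 at -0.44 (SE 0.60). Of 11 fatty acid synthesis and desaturation genes 8 were above 0 (median 0.09), with Acly, which supplies acetyl-CoA, at 0.09 (SE 0.22) and Fasn, fatty acid synthase, at 0.79 (SE 0.52). Of 11 tested genes of lysosomal release, uptake and transfer 7 were above 0 (median 0.13). In that list Npc2, which carries cholesterol out of lysosomal vesicles, had -0.12 (SE 0.11). The 4 tested LXR partners and further LXR targets were all below 0 (median -0.07), with Rxra at -0.13 (SE 0.38) and Smpdl3a at -0.08 (SE 0.28). The 4 tested of the 5 members of the LXR arm proper were all above. The untested member, Abca1, had most of its few counts in 0Q (27, 0 and 0, against 0, 5 and 1 in 100Q). No difference between these 2 lists was tested. Ch25h, which makes an oxysterol, was the only tested gene of its list, at 0.37 (SE 0.37).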

How the data were processed

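Values were the authors' deposited gene-level expected counts for 6 libraries, rounded to whole numbers. FastQC, STAR, RSEM and build GRCm39 are named per the submitters' processing notes; versions, annotation and strand setting were not given in the sources used here. Expected counts share reads between similar sequences, so they need not be whole. Symbols, exon lengths and coding sequences came from GENCODE mouse release 39, and 502 identifiers were not matched. No deposited column was left unused.

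Genes passing filterByExpr were normalised by TMM and tested with edgeR 4.0.16 in R 4.3.3 (quasi-likelihood, no block, Benjamini-Hochberg over all tested genes, threshold 0.05). The procedure was tried on simulated counts whose changes were larger than any member's estimate. Changes of the members' size were not covered there. DESeq2 1.42.0, limma 3.58.1 (voom), other scalings and filters, a replicate block and leaving out each library were alternatives. Each SE was taken from the fold change and its F statistic. Same-group libraries differed by a chi-square per gene of 9.22 to 16.5, so none was a copy. Levels of log2(CPM + 1) used a pseudocount of 1.

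All 30 members were named, and from each neighbouring list 1 gene with the lowest p plus the most highly expressed one; 2 of these are not reported here. Members and lists were chosen with earlier results of these data known. Intervals and floors of 3 counts cover counting or model error only.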

Additional observations from a re-analysis of the deposited data

How the results depend on the processing

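The median log2 fold changes of the synthesis enzymes and of all tested members moved by less than the spread between libraries (SD 0.091 and 0.11) under every alternative run. The SD is that of single libraries within a group, and every run shares all or most of its libraries with the main one. Moves under this limit therefore do not show that the medians are stable. The count of members past the adjusted threshold stayed at 0. That spread exceeds the enzymes' median of 0.035, which was below 0 with limma-voom (-0.017) and without 0Q replicate 2 (-0.050), 0Q replicate 3 (-0.012), 100Q replicate 1 (-0.038) or 100Q replicate 3 (-0.0026). Without each library in turn, genes called ranged from 0 to 2 (2 without 0Q replicate 1, 1 without 0Q replicate 2). Members at an unadjusted p under 0.05 by edgeR ranged from 0 to 1 (Fdft1 without 0Q replicate 1, Mylip without 0Q replicate 2). Members without overlap ranged from 1 to 8 (most without 100Q replicate 3), where fewer libraries make separation easier. The backgrounds of 2.93% and 8.24% given above come from all 6 libraries and do not apply to these runs. No result about the members is read from these counts. Under limma-voom the sign changed for Mvk (-0.38), Pmvk (0.016), Scap (-0.022), Stard4 (-0.0097) and Rxra (0.096); the cause was not tested. Leaving out single libraries gave log2 fold changes from -0.0095 to 0.32 for Acat2, -0.016 to 0.95 for Mvk, -0.17 to 0.14 for Pmvk, -0.035 to 0.37 for Mvd, -0.19 to 0.14 for Fdps and -0.30 to 0.044 for Ebp. They ran from -0.54 to 0.34 for Srebf1, -0.23 to 0.30 for Srebf2, -0.083 to 0.72 for Scap, -0.42 to 0.20 for Insig2, -0.12 to 0.29 for Nr1h3 and -0.15 to 0.36 for Stard4. For the other genes named they ran from -0.44 to 0.11 for Rxra, -0.32 to 0.14 for Smpdl3a, -0.14 to 0.41 for Acly, -0.85 to 0.047 for Coq2 and -0.20 to 0.0035 for Npc2. Same-numbered libraries of the 2 groups deviated together with correlations of 0.03, 0.08 and -0.0029, so the numbers are not shown to pair them; with the replicate block 0 genes and 0 members were called, and the median of all tested members was 0.14. The correlation with codon share was chosen after the values were seen. No interval of the 8 tested members under 10 CPM stayed within 2-fold.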
